A study of Homo sapiens with 38 samples.

Results

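Histone acetyltransferases transfer acetyl groups from acetyl-CoA to lysines of histones and other proteins, the reaction that histone deacetylases (HDACs) reverse. The 9 genes described here encode the catalytic subunits of the main nuclear families, namely KAT2A and KAT2B (GCN5 and PCAF), the MYST enzymes KAT5, KAT6A, KAT6B, KAT7 and KAT8, and the coactivator pair CREBBP and EP300. They were taken by symbol from a count table of 18011 genes, all 9 were found there, and all 9 passed the filter on low counts in each comparison. CREBBP and EP300 have a particular place in B-cell lymphoma, where inactivating mutations of either gene recur.

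The samples were 6 established human cell lines derived from diffuse large B-cell lymphomas, OCILY1, PFEIFFER, SUDHL4, SUDHL6, TOLEDO and WSUDLCL2, profiled by RNA sequencing of bulk cultures. The groups were pracinostat for 14 days (5 libraries), vorinostat for 14 days (5), the solvent DMSO for 14 days in sets titled DMSOP and DMSOV (5 each), pracinostat for 6 h (6), vorinostat for 6 h (5) and DMSO for 6 h (6). Each line gave 1 library per treatment and time. SUDHL6 has libraries of pracinostat and of DMSO at 6 h only among those analysed here. Both drugs are hydroxamic acids that inhibit HDACs. The labels give neither doses nor mutations, and no source says whether the cultures behind a line's libraries were separate, so p-values measure the spread of treatment differences between these libraries, which may in part be technical. At 14 days each drug was set against the DMSO set that carries its first letter, which is a reading of the titles. At 6 h both drugs were set against the same DMSO libraries, whose titles say DMSO only. Column names of the deposited log2 values call them DMSOV in OCILY1, SUDHL4, SUDHL6 and WSUDLCL2, and DMSOP in PFEIFFER and TOLEDO. By the reading used at 14 days, some lines at 6 h thus have the control named for the other drug.

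Library totals ran from 3.19 M to 8.92 M counts. The members had between 17 counts (KAT5) and 2213 counts (EP300) per library. A count of 0 would allow up to 3 counts, or 0.336 to 0.941 CPM (read counts per TMM-adjusted library size) depending on the library, for counting error only. All 7 B-cell markers examined were present in each library. Of the T-cell markers CD3D and CD3E stayed at or below 3.35 CPM, while CD8A had a median of 0.158 CPM and a highest value of 1210 CPM. Mitochondrially encoded genes took 11.1% to 17.0% of the counts with pracinostat at 14 days and 10.5% to 17.5% with vorinostat at 14 days, against 6.45% to 11.0% in DMSOP and 6.76% to 12.0% in DMSOV. At 6 h the share was 5.30% to 11.8% over all 17 libraries.

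In cells kept in DMSO all 9 transcripts were present in all 6 lines. Per kilobase of the principal transcript, KAT2A had the highest mean level, 26.4 ± 5.31 CPM per kb (SD, n = 6 lines), followed by KAT8 with 23.4 ± 3.82 and EP300 with 19.4 ± 3.12 CPM per kb. KAT6A followed with 13.0 ± 4.08, KAT2B with 10.2 ± 3.37 and CREBBP with 9.31 ± 3.42 CPM per kb. KAT5 had 9.05 ± 2.14, KAT6B 7.40 ± 1.80 and KAT7 7.38 ± 2.71 CPM per kb. KAT2A and KAT8 differed by less than the SD over lines, as did each pair of neighbours in that order from KAT6A down to KAT7, while the steps from KAT8 to EP300 and from EP300 to KAT6A exceeded it. The order depends on the length used, since over all annotated exons KAT8 stood at 9.96 and KAT6B at 1.90 CPM per kb, with KAT2A still the highest at 21.8.

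**Figure D1:**
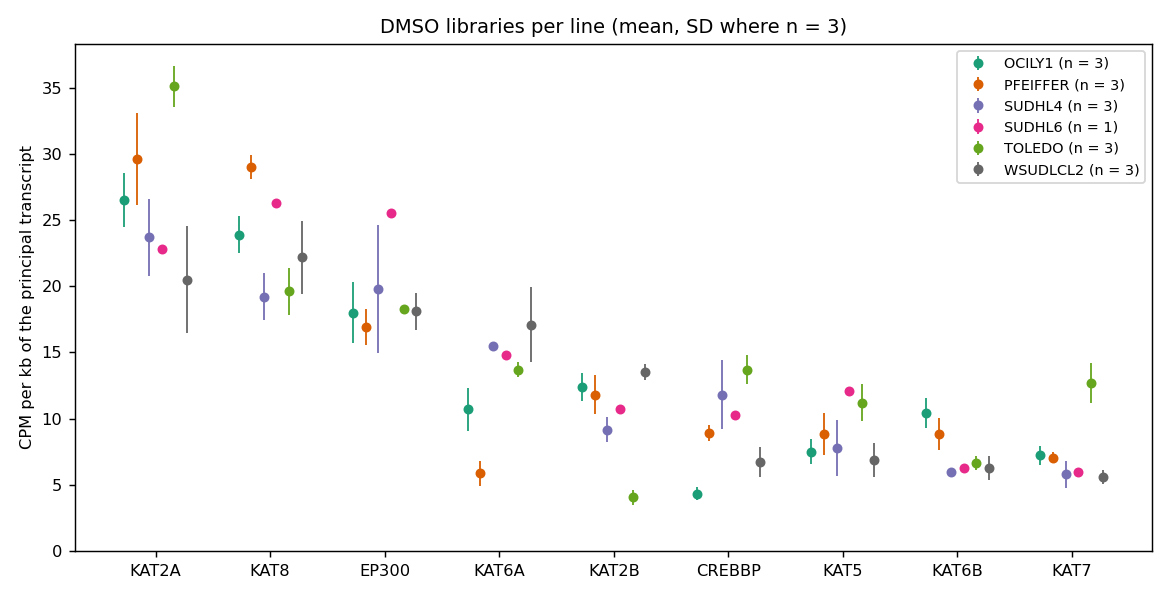
Levels of the 9 genes in DMSO, in CPM per kb of the principal transcript (y axis), for each line (points: mean of its DMSO libraries, bars: SD where there are 3 libraries). TOLEDO is lowest for KAT2B at 4.05 and highest for KAT7 at 12.7 CPM per kb, while EP300 lies between 16.9 and 25.5.

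Lines in DMSO differed in 8 of the 9 genes (edgeR, adjusted p under 0.05 over all genes, 5 lines with 3 DMSO libraries each), where 89.9% of all genes tested did. The count lies near the share of all genes and is no result about the members. The 3 libraries of a line are DMSO at 6 h, DMSOP and DMSOV, so the SDs given here span both times. In this test they stood as replicates of the line, with the DMSO set as block. KAT5 lost its call without TOLEDO and KAT8 without PFEIFFER. The exception was EP300 (adjusted p 0.677), with 162 to 190 CPM over these 5 lines. KAT2B, which encodes PCAF, had 19.6 ± 2.79 CPM in TOLEDO (SD, n = 3), and 44.3 to 65.1 CPM on average in the other 5 lines. KAT7, the HBO1 enzyme that serves replication origins, showed the opposite in that line, with 123 ± 14.6 CPM in TOLEDO (SD, n = 3) and 53.8 to 69.5 CPM elsewhere. KAT6A was lowest in PFEIFFER at 53.9 ± 8.80 CPM (SD, n = 3) and highest in WSUDLCL2 at 158 ± 26.4 CPM. CREBBP had 46.7 ± 5.44 CPM in OCILY1 and 148 ± 12.2 CPM in TOLEDO (SD, n = 3 each), a range of 3.17-fold over the lines. The remaining members, KAT2A, KAT5, KAT6B and KAT8, varied 1.51-fold to 1.76-fold over the lines. Between DMSO at 14 days and DMSO at 6 h no member was called, where 23.6% of all genes were, and the member changes ran from -0.32 (KAT5) to 0.21 (KAT6A, KAT6B and KAT7) on the log2 scale. At an unadjusted p under 0.05 there were 4 members, KAT5, KAT6A, KAT6B and KAT7. The share of all genes at that threshold was not counted here, so this number is no result about the members. Without SUDHL4 the KAT6B change was called, and without TOLEDO that of KAT5.

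Promoter windows of 300 bases, from 250 before to 50 after the start site, were read from RefSeq (GRCh38.p14) for 7 of the members in 10 windows. KAT6A and KAT8 are not among these members. KAT5, KAT6B and KAT7 fell with each drug at each time. KAT5 and KAT7, with a single window each, are printed, and the 3 windows of KAT6B are described by their matches. KAT2A and KAT2B are shown because KAT2A was called at 6 h with both drugs and its close relative KAT2B with 1 of them. Capitals mark matches, on either strand, to the searched motifs: the CRE core TGACG, the E-box CACGTG, the GC box GGGCGG, the ETS core CCGGAAG and the YY1 motif AAGATGGC.
KAT5, chr11:65712002-65712301, plus strand: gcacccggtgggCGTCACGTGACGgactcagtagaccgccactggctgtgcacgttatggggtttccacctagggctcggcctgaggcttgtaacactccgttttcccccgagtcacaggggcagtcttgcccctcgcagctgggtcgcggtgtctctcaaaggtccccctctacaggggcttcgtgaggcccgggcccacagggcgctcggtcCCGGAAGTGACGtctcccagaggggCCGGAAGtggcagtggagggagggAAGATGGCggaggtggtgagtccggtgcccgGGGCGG
KAT7, chr17:49788431-49788730, plus strand: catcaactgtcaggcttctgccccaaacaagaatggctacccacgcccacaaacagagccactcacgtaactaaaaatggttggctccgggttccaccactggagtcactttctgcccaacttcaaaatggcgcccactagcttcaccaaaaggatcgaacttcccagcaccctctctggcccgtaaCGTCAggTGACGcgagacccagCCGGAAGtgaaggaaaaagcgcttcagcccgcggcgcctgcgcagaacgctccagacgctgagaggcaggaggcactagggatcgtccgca
KAT2A, chr17:42121318-42121617, minus strand: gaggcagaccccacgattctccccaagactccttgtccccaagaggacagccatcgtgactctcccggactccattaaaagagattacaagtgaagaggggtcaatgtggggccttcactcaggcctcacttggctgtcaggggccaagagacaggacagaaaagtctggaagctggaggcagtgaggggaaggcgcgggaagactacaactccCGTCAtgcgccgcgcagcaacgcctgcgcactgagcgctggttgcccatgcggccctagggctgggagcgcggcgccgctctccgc
KAT2B, chr3:20040196-20040495, plus strand: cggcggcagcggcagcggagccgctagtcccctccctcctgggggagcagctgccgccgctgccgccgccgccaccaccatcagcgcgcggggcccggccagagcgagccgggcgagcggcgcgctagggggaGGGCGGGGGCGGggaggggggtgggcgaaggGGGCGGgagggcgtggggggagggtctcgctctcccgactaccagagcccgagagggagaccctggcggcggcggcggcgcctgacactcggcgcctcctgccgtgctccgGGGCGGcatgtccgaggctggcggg

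The KAT5 window held the CRE core 3 times, and its E-box at -235 overlaps the CRE cores at -238 and -231. One ETS core of KAT5, at -36, ends just before the CRE core at -29. The KAT7 window held a pair of CRE cores at -63 and -56 on opposite strands and an ETS core at -41. The 3 windows of KAT6B, which fell in the same comparisons, held 0 CRE cores, 0 ETS cores and 1, 10 and 1 GC boxes, the last also 4 CCAAT boxes. KAT2A had 1 CRE core at -36 and no GC box, and KAT2B had 4 GC boxes and no CRE core, with 62.0% and 80.3% GC. The windows of CREBBP held 2 and 0 CRE cores, 3 and 4 GC boxes and 1 and 0 YY1 motifs. That of EP300 matched none of the searched motifs. Of all 35116 promoter windows of the same length, 24.6% held the CRE core, 45.0% the GC box, 10.3% the ETS core, 7.26% the E-box and 2.89% the YY1 motif, and the median GC content was 58.7%. The full CRE TGACGTCA was held by 1.85% of all windows, the CCAAT box by 34.6%, the TATA box TATAAA by 11.5% and the NRF1 motif by 1.24%, and none of these matched in the 4 windows shown. These matches describe letters only.

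The 6 h comparisons asked which transcripts changed soon after exposure. With pracinostat 7 of the 9 members fell and 0 rose, where 18.9% of the 13177 genes tested fell, 21.2% rose and 40.1% changed in either direction. With vorinostat 8 fell and 0 rose, where 20.9% of genes fell, 23.1% rose and 43.9% changed. The median member change was -0.81 with pracinostat and -0.86 with vorinostat on the log2 scale, beside 0.03 and 0.02 over all genes. The sum of the 9 transcripts was 477 ± 72.1 CPM with pracinostat (SD, n = 6) and 460 ± 45.8 CPM with vorinostat (SD, n = 5), against 719 ± 92.5 CPM in DMSO (SD, n = 6, with SUDHL6 included). In bulk RNA fewer cells with a transcript and less of it per cell cannot be told apart. Scaled by library totals, 64.8% of the genes called with pracinostat were higher, against 52.8% with the TMM factors used here, and 7 members fell with each drug. Of the 7 B-cell markers 6 fell with each drug as well, their sum being 2290 to 3910 CPM with pracinostat and 2050 to 3480 CPM with vorinostat, against 2990 to 7130 CPM in DMSO. Of 3 fibroblast and endothelial markers with a row, COL1A1 rose, by 2.00 (SE 0.42) and 1.29 (SE 0.43). The part of these markers in the member changes was not tested.

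KAT5 (ENSG00000172977, chromosome 11, 65711996 to 65719604, GRCh38), the catalytic subunit TIP60 of the NuA4 complex, had the lowest fitted change of the family at 6 h under both drugs, though with vorinostat its gap to KAT6B was smaller than either SE. It had 4.82, 7.29 and 11.6 CPM (lowest, median and highest of 6) with pracinostat, against 18.0, 23.9 and 27.9 CPM in DMSO. With vorinostat its values were 5.82 CPM in OCILY1, 5.02 in PFEIFFER, 6.76 in SUDHL4, 8.65 in TOLEDO and 5.70 in WSUDLCL2. Neither drug's range overlapped that of DMSO. The log2 fold change was -1.71 with pracinostat (SE 0.16, edgeR adjusted p 2.41e-06, lower in 6 of 6 lines) and -1.79 with vorinostat (SE 0.18, adjusted p 1.82e-06, lower in 5 of 5 lines). KAT5 shares 1439 exon bases with RNASEH2C on the opposite strand, and the strand setting of the counting is not given in the sources used here. RNASEH2C had -0.10 (SE 0.12) and -0.15 (SE 0.13) in the same comparisons and was not called.

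**Figure D2:**
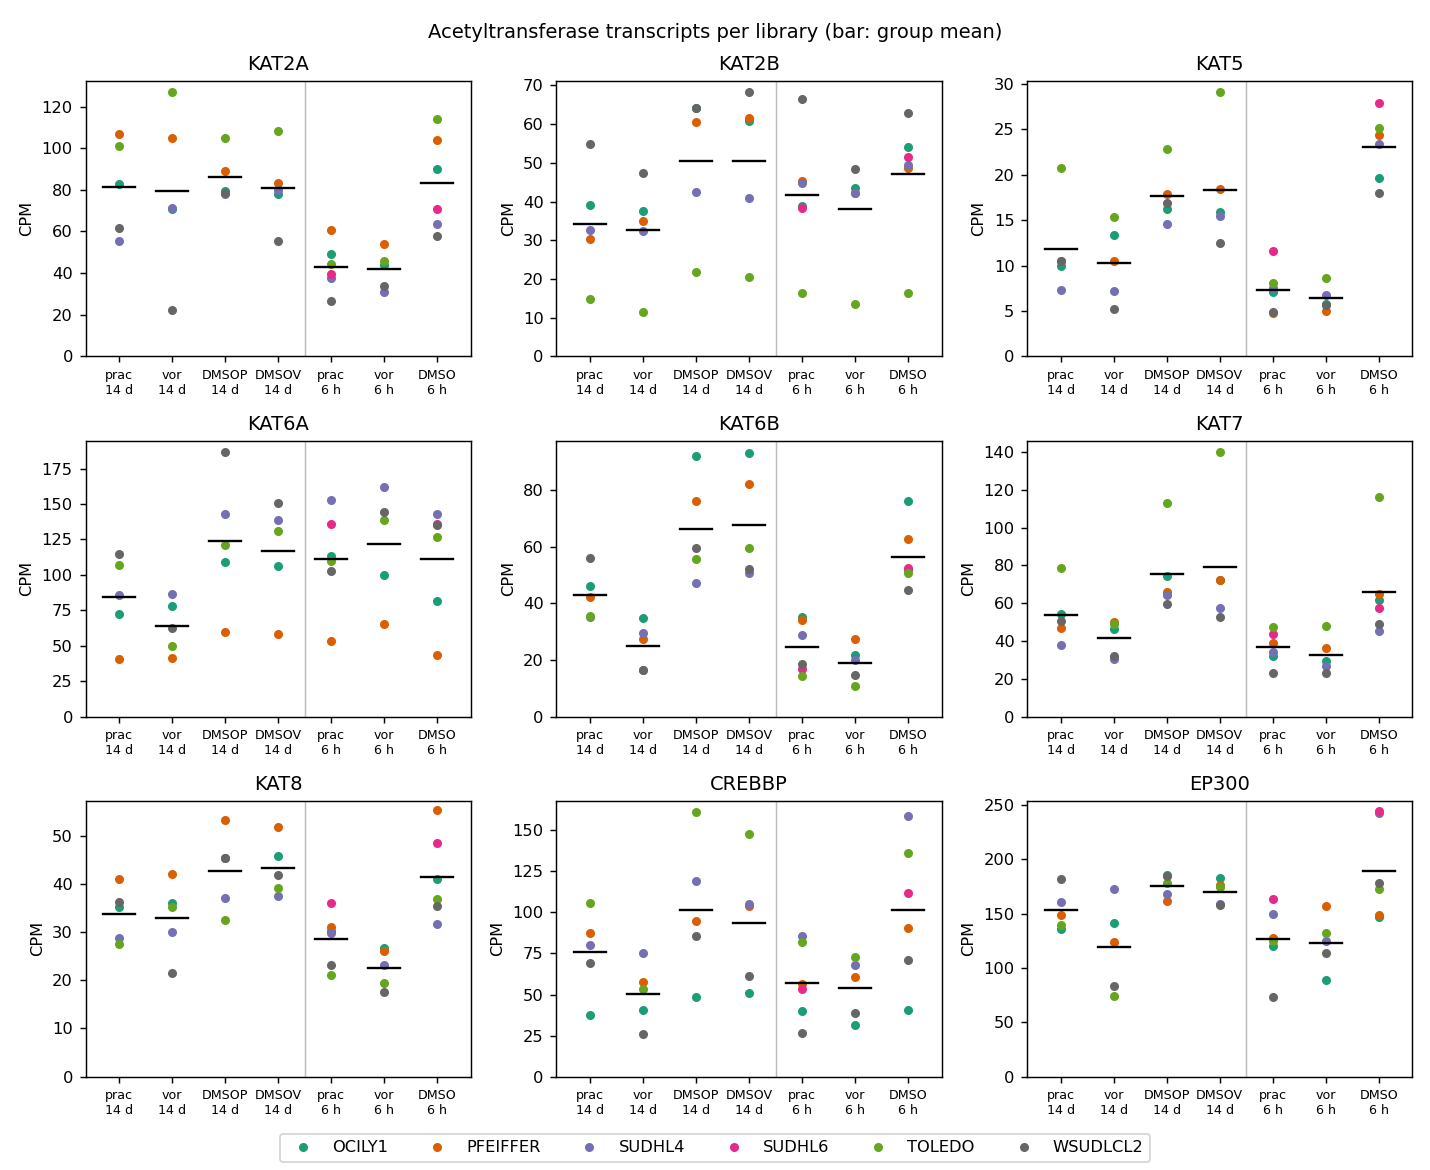
CPM (y axis, from 0) of each gene in every library by group (x axis), with 14 days left of the grey line and 6 h right of it; points are lines and bars are group means. At 6 h KAT5 and KAT6B with either drug lie below all DMSO points, and TOLEDO stands low for KAT2B and high for KAT7 in DMSO.

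KAT6B (chromosome 10, 74824927 to 75032624, GRCh38), the MORF enzyme of a complex that acetylates histone H3, also separated fully at 6 h. It had 14.2, 23.7 and 35.2 CPM (lowest, median and highest of 6) with pracinostat, against 44.8, 52.2 and 76.0 CPM in DMSO. With vorinostat it had 21.6 CPM in OCILY1, 27.5 in PFEIFFER, 20.0 in SUDHL4, 10.8 in TOLEDO and 14.6 in WSUDLCL2. The log2 change was -1.28 (SE 0.14, pracinostat) and -1.71 (SE 0.15, vorinostat), with each line lower. Its close relative KAT6A (MOZ) forms the same kind of complex. KAT6A had 53.5, 112 and 153 CPM with pracinostat, against 43.7, 131 and 143 CPM in DMSO. With vorinostat KAT6A had 65.0 to 162 CPM, and each of 5 lines was slightly higher than its own DMSO library, by 0.09 to 0.57 on the log2 scale. KAT6A was called with neither drug, at 0.03 (SE 0.11, adjusted p 0.873) and 0.21 (SE 0.12, adjusted p 0.151).

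KAT2A (chromosome 17, 42113108 to 42121358, GRCh38), the GCN5 enzyme of the SAGA and ATAC coactivator complexes, fell at 6 h. Its values were 26.5, 42.1 and 60.8 CPM (lowest, median and highest of 6) with pracinostat, against 58.0, 80.2 and 114 CPM in DMSO. It had 44.0 CPM in OCILY1, 54.2 in PFEIFFER, 31.1 in SUDHL4, 45.6 in TOLEDO and 34.0 in WSUDLCL2 with vorinostat, all below the lowest DMSO library. The change was -0.96 (SE 0.11) and -1.04 (SE 0.12), a fold of 0.512 and 0.487. KAT2B, the other catalytic subunit that the same complexes can carry, had 16.3, 41.8 and 66.4 CPM with pracinostat, against 16.4, 50.5 and 62.9 CPM in DMSO, and the groups overlapped. KAT2B was not called with pracinostat (-0.20, SE 0.10, adjusted p 0.14). With vorinostat it changed by -0.33 (SE 0.11, adjusted p 0.0263), with adjusted p from 0.0226 to 0.686 over 14 alternatives, and the call was lost when OCILY1, PFEIFFER, SUDHL4 or WSUDLCL2 was left out.

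The other MYST enzymes and the coactivators fell as well. KAT7 changed by -0.83 (SE 0.12) under pracinostat, at 23.3 to 47.3 CPM against 45.3 to 116 CPM in DMSO. With vorinostat KAT7 had 23.3 to 48.2 CPM, and the 95% interval of its change was -1.25 to -0.75. KAT8, the MOF enzyme that acetylates histone H4, changed by -0.56 (SE 0.12, pracinostat) and -0.85 (SE 0.13, vorinostat). Its 17.6 to 26.7 CPM with vorinostat did not overlap the 31.7 to 55.3 CPM in DMSO. CREBBP (chromosome 16, 3725054 to 3880726, GRCh38), which encodes CBP, had 26.7 to 85.9 CPM with pracinostat and 31.3 to 72.9 CPM with vorinostat, against 40.6 to 159 CPM in DMSO. Its groups overlapped, OCILY1 being the lowest DMSO library, and the change within lines was -0.81 (SE 0.14) and -0.86 (SE 0.15). EP300 (chromosome 22, 41091786 to 41180079, GRCh38), which encodes p300, had 73.6 to 164 CPM with pracinostat, 88.6 to 157 CPM with vorinostat and 147 to 245 CPM in DMSO. Its change was -0.60 (SE 0.14, pracinostat, lower in 6 of 6 lines) and -0.55 (SE 0.15, vorinostat, lower in 4 of 5 lines). Without SUDHL4 the EP300 call with vorinostat was lost.

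Members of a related pair were also set against each other in each line. The log2 ratio of KAT6B to KAT6A changed by -1.29 ± 0.35 with pracinostat at 6 h (SD, n = 6, lower in 6 of 6 lines, two-sided exact sign-flip permutation p = 0.0312) and by -1.88 ± 0.32 with vorinostat (SD, n = 5, lower in 5 of 5, exact p = 0.0625). The ratio of KAT2A to KAT2B changed by -0.77 ± 0.41 (SD, n = 6, lower in 6 of 6, exact p = 0.0312) and by -0.74 ± 0.24 (SD, n = 5, lower in 5 of 5, exact p = 0.0625). These are the smallest p-values that 6 and 5 lines allow, and adjusted over the 12 ratio tests made they were 0.15. With so few lines none of the 12 could have had an adjusted p under 0.05, so these tests cannot decide whether a ratio changed. CREBBP to EP300 changed by -0.21 ± 0.28 and -0.26 ± 0.39 (SD, n = 6 and n = 5). At 14 days KAT6B to KAT6A changed by -0.05 ± 0.48 with pracinostat (SD, n = 5, lower in 3 lines and higher in 2, exact p = 0.875) and by -0.60 ± 0.42 with vorinostat (SD, n = 5, lower in 5 of 5, exact p = 0.0625). CREBBP to EP300 then changed by -0.19 ± 0.24 and -0.28 ± 0.23 (SD, n = 5 each). The pairs were chosen after the values had been seen.

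**Figure D3:**
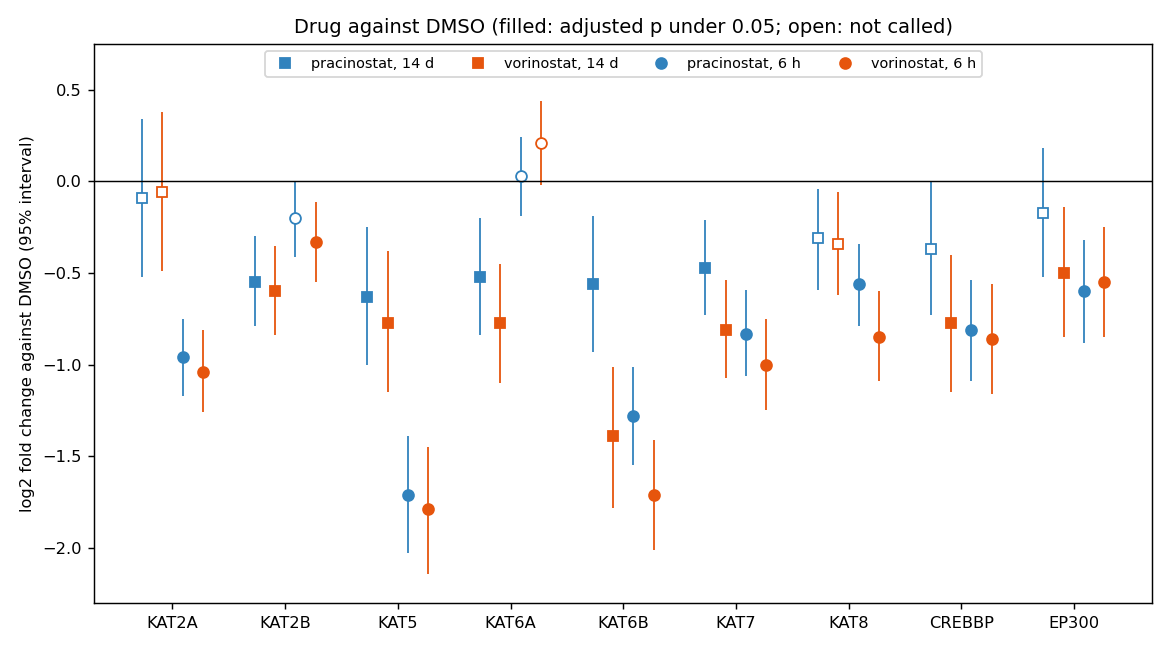
Log2 fold change of each gene (x axis) against DMSO (y axis, with 95% intervals) for each drug at 14 days (squares) and 6 h (circles); filled symbols were called. KAT5 at 6 h and KAT6B at 6 h and with vorinostat at 14 days lie lowest; KAT2A is near 0 at 14 days and KAT6A near 0 at 6 h.

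The 14-day comparisons asked how the transcripts stood after long exposure. With pracinostat 5 of the 9 members fell and 0 rose, where 10.2% of 14037 genes fell, 12.3% rose and 22.6% changed. The members' median was -0.47, beside 0.07 over all genes. With vorinostat 7 fell and 0 rose, where 17.2% of genes fell, 20.4% rose and 37.6% changed, with medians of -0.77 and 0.12. The summed level was 572 ± 58.4 CPM with pracinostat, against 740 ± 53.6 CPM in DMSOP (SD, n = 5 each). With vorinostat it was 455 ± 85.5 CPM, against 720 ± 75.4 CPM in DMSOV (SD, n = 5 each). The pracinostat count changed when a line was left out. Then 0 members were called without OCILY1, 0 without PFEIFFER, 1 without SUDHL4 and 4 without TOLEDO or WSUDLCL2. Without OCILY1, PFEIFFER or SUDHL4 fewer of all genes were called as well, in fits on fewer libraries. All 5 called members were lower in 5 of 5 lines and kept a negative change under each of 15 alternatives. Each of the 5 lost its call without OCILY1 and without PFEIFFER. Without the mitochondrially encoded genes, whose share was higher with both drugs, the counts were again 5 and 7. Under scaling by library totals 44.1% of the genes called with vorinostat were higher, against 54.3% with TMM factors, the median of all genes moved by -0.11, and 6 and 8 members fell.

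KAT6B had the largest fall at 14 days with vorinostat. It had 34.7 CPM in OCILY1, 27.2 in PFEIFFER, 29.4 in SUDHL4, 16.4 in TOLEDO and 16.6 in WSUDLCL2 with vorinostat, against 93.1, 82.1, 50.6, 59.6 and 52.1 CPM in the same lines in DMSOV. These ranges did not overlap, and the change was -1.39 (SE 0.19, adjusted p 0.000117). With pracinostat KAT6B had 46.0, 42.1, 35.3, 35.6 and 55.9 CPM in the same order of lines, against 91.8, 76.1, 47.3, 55.6 and 59.6 CPM in DMSOP. Here the groups overlapped and the change was -0.56 (SE 0.19, adjusted p 0.0407), ranging from -0.72 to -0.45 over 15 alternatives, 7 of which lost the call.

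KAT6A, which no drug had lowered at 6 h, fell at 14 days under both. With vorinostat it had 77.9 CPM in OCILY1, 41.5 in PFEIFFER, 86.4 in SUDHL4, 49.6 in TOLEDO and 62.6 in WSUDLCL2, against 106, 58.1, 139, 131 and 151 CPM in DMSOV. With pracinostat it had 72.1, 40.7, 85.6, 107 and 115 CPM in these lines, against 109, 59.7, 143, 121 and 187 CPM in DMSOP. All 5 lines were lower with each drug, although the ranges overlapped, PFEIFFER being the lowest library of each group. The changes were -0.77 (SE 0.17, adjusted p 0.00199) under vorinostat and -0.52 (SE 0.16, adjusted p 0.0315) with pracinostat.

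KAT2A was called with neither drug at 14 days. It had 82.6 CPM in OCILY1, 107 in PFEIFFER, 55.6 in SUDHL4, 101 in TOLEDO and 61.7 in WSUDLCL2 with pracinostat, against 79.5, 89.1, 77.8, 105 and 78.3 CPM in DMSOP. With vorinostat it had 71.0, 105, 71.4, 127 and 22.4 CPM in the same lines, against 78.0, 83.1, 80.0, 108 and 55.3 CPM in DMSOV. WSUDLCL2 with vorinostat was the furthest below its control, by -1.29 on the log2 scale, and the other 4 lines lay between -0.16 and 0.34. The fitted changes were -0.09 (95% interval -0.52 to 0.34) with pracinostat and -0.06 (-0.49 to 0.38) with vorinostat. KAT2B fell, at -0.55 (SE 0.13, adjusted p 0.00677) with pracinostat and -0.60 (SE 0.13, adjusted p 0.00194) with vorinostat, lower in 5 of 5 lines each. At 14 days the KAT2A to KAT2B ratio changed by 0.46 ± 0.59 and 0.43 ± 0.78 (SD, n = 5 each), with exact permutation p = 0.25 and 0.312.

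KAT5 had 9.99 CPM in OCILY1, 10.5 in PFEIFFER, 7.29 in SUDHL4, 20.7 in TOLEDO and 10.5 in WSUDLCL2 with pracinostat, against 16.2, 17.9, 14.6, 22.8 and 16.9 CPM in DMSOP. TOLEDO was closest to its control. With vorinostat KAT5 had 13.4, 10.5, 7.17, 15.3 and 5.22 CPM in these lines, against 15.9, 18.4, 15.5, 29.1 and 12.5 CPM in DMSOV. The change was -0.63 (SE 0.19, adjusted p 0.0276) and -0.77 (SE 0.20, adjusted p 0.0063), while the overlapping RNASEH2C had 0.22 (SE 0.20, not called) and 0.85 (SE 0.20, higher).

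KAT7 had 46.1 CPM in OCILY1, 50.3 in PFEIFFER, 30.7 in SUDHL4, 49.1 in TOLEDO and 32.2 in WSUDLCL2 with vorinostat, all below the 52.6 to 140 CPM in DMSOV. Its change was -0.81 (SE 0.14, vorinostat) and -0.47 (SE 0.13, adjusted p 0.02, pracinostat). KAT7 shares 295 exon bases with FAM117A on the opposite strand, which rose by 0.94 (SE 0.18) with vorinostat at 14 days and by 0.70 (SE 0.15) with vorinostat at 6 h.

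The coactivators were called with vorinostat and not with pracinostat, while the test between the drugs called neither. CREBBP with vorinostat had 26.1 to 75.1 CPM, against 51.0 to 148 CPM in DMSOV, and fell, at -0.77 (SE 0.19, adjusted p 0.00487). With pracinostat CREBBP had 37.7 to 106 CPM, against 48.5 to 161 CPM in DMSOP, at -0.37 (SE 0.19, adjusted p 0.162). EP300 had 74.7 to 173 CPM with vorinostat, against 158 to 183 CPM in DMSOV, at -0.50 (SE 0.18, adjusted p 0.0405), and 7 of 15 alternatives lost this call, among them leaving out OCILY1, PFEIFFER, TOLEDO or WSUDLCL2. With pracinostat EP300 had 136 to 182 CPM, against 162 to 186 CPM in DMSOP, at -0.17 (SE 0.18). KAT8 was not called, at -0.31 (SE 0.14) and -0.34 (SE 0.14), although lower in 5 of 5 lines with each drug.

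Some markers of other lineages also moved at 14 days. Of 7 myeloid markers 3 had a row in the table, and their sum was 0.78 to 19.5 CPM with pracinostat and 1.08 to 37.1 CPM with vorinostat, against 0 to 1.57 CPM in DMSOP and 0 to 1.67 CPM in DMSOV. All 3, ITGAM, CD33 and CSF1R, were called higher with both drugs. None of these 3 passed the filter on low counts at 6 h or among the DMSO libraries alone. They thus entered the 14-day test through the drug libraries where they are high, so these calls are no independent support for a rise. Of 4 NK-cell markers 2 had a row, with sums of 0.487 to 18.2 CPM with pracinostat and 0.332 to 17.1 CPM with vorinostat. In DMSOP their sums were 0.249 to 0.897 CPM and in DMSOV 0.436 to 1.53 CPM. Neither passed the filter on low counts, so the NK-cell markers were not tested. Of the B-cell markers 3 of 7 rose with each drug and 0 fell. Of the 3 fibroblast and endothelial markers PECAM1 rose with pracinostat, by 2.56 (SE 0.87, adjusted p 0.0456), and had 0.89 (SE 0.90) with vorinostat. The summed myeloid, NK-cell, T-cell, fibroblast and endothelial markers all overlapped between each drug and its DMSO set, and 0 of 3 erythroid markers had a row. The part of these markers and of the mitochondrial share in the member changes was not tested beyond the count without mitochondrially encoded genes.

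An interaction term over all 37 libraries asked whether a drug acted differently at 14 days than at 6 h. With pracinostat 3 members had a higher effect at 14 days than at 6 h and 1 a lower one, where 19.4% of 15420 genes changed, 9.53% higher and 9.83% lower. With vorinostat 2 were higher and 1 lower, where 23.4% of genes changed, 11.2% higher and 12.2% lower. KAT2A was among the higher ones under both drugs, with an effect of -0.09 at 14 days and -0.96 at 6 h for pracinostat, a difference of 0.85 (SE 0.25, adjusted p 0.0169). For vorinostat its difference was 0.94 (SE 0.26, adjusted p 0.009). KAT5 differed by 1.06 (SE 0.24, adjusted p 0.00294) with pracinostat and 0.99 (SE 0.25, adjusted p 0.00494) with vorinostat, so that its fall at 14 days was smaller than at 6 h. KAT6A went the other way, by -0.57 (SE 0.20, adjusted p 0.0419) with pracinostat and -1.02 (SE 0.20, adjusted p 0.00073) with vorinostat. KAT6B differed with pracinostat, by 0.70 (SE 0.23, adjusted p 0.0349), while with vorinostat its difference was 0.28 (SE 0.25, adjusted p 0.444). Under scaling by library totals the median of all genes moved by -0.15 and -0.16, the share of called genes that were higher fell to 30.7% and 32.8%, against 49.2% and 47.8% with TMM factors, the KAT6B call was lost, and KAT2B became a called lower member with both drugs. The KAT2A call with pracinostat was lost without OCILY1, PFEIFFER or TOLEDO, and with vorinostat without PFEIFFER or TOLEDO. Leaving out OCILY1, PFEIFFER, SUDHL4 or SUDHL6 ended the KAT6A call with pracinostat, and leaving out SUDHL4, SUDHL6, TOLEDO or WSUDLCL2 ended that of KAT6B. The KAT5 calls and the KAT6A call with vorinostat were kept in each of 10 alternatives. A batch that goes with the time cannot be told apart from the time.

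**Figure D4:**
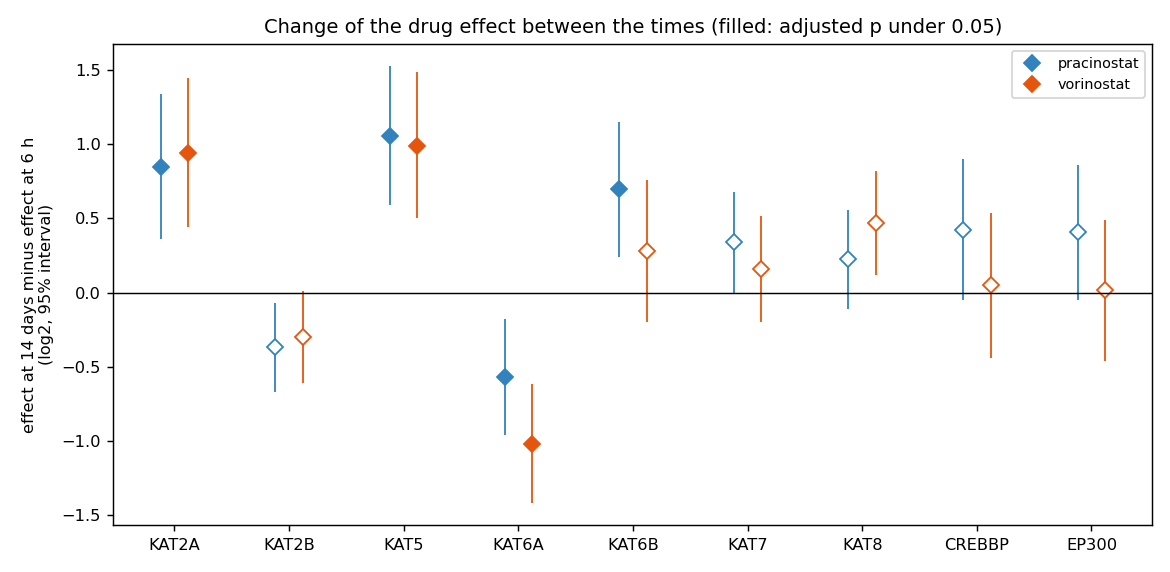
Effect at 14 days minus effect at 6 h (y axis, log2, 95% intervals) for each gene and drug; filled symbols were called. KAT2A and KAT5 lie above 0 and KAT6A below 0 with both drugs.

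The drugs share the hydroxamic acid that binds the zinc of the HDAC active site, which vorinostat carries on a straight alkyl chain and pracinostat on an acrylamide joined to a benzimidazole. Doses are not given, so equal exposure cannot be assumed. No member was called between the drugs in the direct contrast at 6 h, where edgeR called 2 of 13177 genes (0.0152%, with 0.00759% in each direction), nor in the contrast of effects at 14 days, where it called 0 of 14037 (0%). DESeq2 called 49 genes and no member at 6 h. At an unadjusted p under 0.05 there were 1214 genes (9.21%) with 2 members at 6 h and 552 genes (3.93%) with 1 member at 14 days. Over the 18 gene and time pairs compared, the largest differences were those of KAT6B. Its effect with pracinostat minus that with vorinostat was 0.83 at 14 days (95% interval 0.31 to 1.36) and 0.43 at 6 h (0.13 to 0.73), each with an adjusted p of 0.111 over the pairs. For KAT8 at 6 h the difference was 0.29 (0.04 to 0.53, adjusted p 0.231 over the pairs). For the other 15 pairs the intervals included 0, and the widest, that of KAT2A at 14 days, ran from -0.65 to 0.58, so differences of that size between the drugs were not detectable.

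By line, most members were lower than in the DMSO library of the same line. At 6 h 8 or 9 of the 9 were lower with pracinostat in each of 6 lines and 7 or 8 with vorinostat in each of 5, while 44.0% to 50.2% and 46.4% to 49.3% of all genes were. The median member difference with pracinostat ran from -1.12 in WSUDLCL2 to -0.47 in OCILY1. At 14 days 8 or 9 members were lower in each line with each drug, while 46.8% to 50.5% of all genes were with pracinostat and 45.9% to 49.9% with vorinostat. The median under vorinostat was -1.22 in TOLEDO and -1.21 in WSUDLCL2, and -0.38 to -0.52 in OCILY1, PFEIFFER and SUDHL4. With pracinostat the same lines were close to each other, from -0.50 in PFEIFFER to -0.30 in WSUDLCL2. Differences between the DMSOP and DMSOV libraries of a line had medians of -0.10 to 0.22. Single genes ran from -0.34 (KAT5 in TOLEDO) to 0.50 (KAT2A in WSUDLCL2), with CREBBP at 0.49 in WSUDLCL2. The test of whether lines differ in their response at 14 days, which takes both drugs of a line as replicates, called 0 of 9 members, where 21.1% of all genes were called. At an unadjusted p under 0.05 it had 4959 genes (35.3%) and 0 members, the smallest member value being 0.0902 for KAT2B. This test averages both drugs of a line, so it cannot decide on a line difference seen with vorinostat alone.

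**Figure D5:**
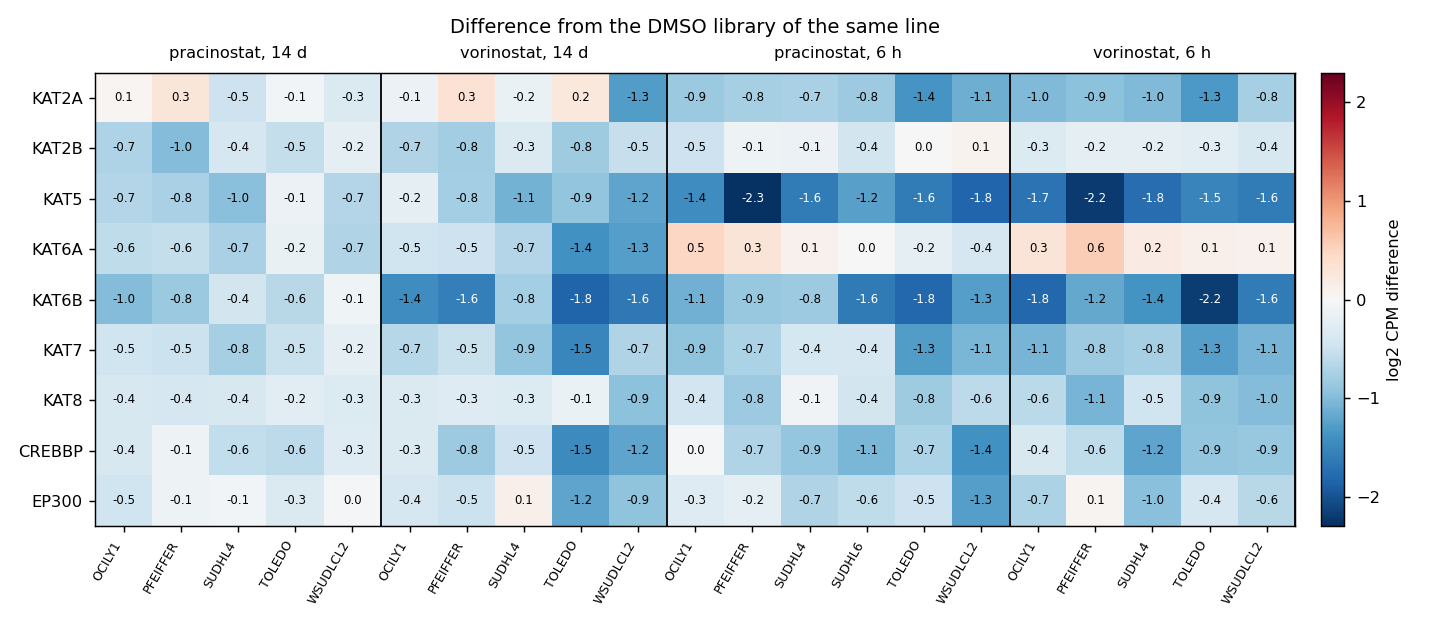
Difference in log2 CPM between each drug library and the DMSO library of its line (columns, 14 days left, 6 h right) for each gene (rows); blue is lower and red higher with the drug. With vorinostat at 14 days TOLEDO and WSUDLCL2 carry the darkest columns for KAT6A, KAT6B and CREBBP.

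Acetyltransferases work in complexes, whose other subunits were followed as lists; some genes stand in more than 1 list. In what follows, paired values give pracinostat before vorinostat, as log2 changes against DMSO. Each list's counts stand beside the shares of all genes, where 18.9% and 20.9% fell and 21.2% and 23.1% rose at 6 h, and 10.2% and 17.2% fell and 12.3% and 20.4% rose at 14 days. Of 22 SAGA and ATAC partners of KAT2A and KAT2B, pracinostat lowered 13 and raised 3 at 6 h (median -0.43), and vorinostat lowered 13 and raised 2 (median -0.42). The adaptor genes SGF29, a reader of methylated histone H3, and ZZZ3, an ATAC subunit, fell most, SGF29 at -1.18 (SE 0.19) and -1.57 (SE 0.21), ZZZ3 at -1.12 (SE 0.10) and -1.45 (SE 0.11). ENY2, of the deubiquitinase module, rose by 0.38 (SE 0.11) and 0.50 (SE 0.12). At 14 days pracinostat lowered 4 and raised 1, and vorinostat lowered 10 and raised 3 (medians -0.10 and -0.33). The adaptor TADA2A then led the falls, at -0.78 (SE 0.14) and -1.28 (SE 0.15).

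Of 17 NuA4 partners of KAT5, 8 fell and 1 rose with each drug at 6 h (medians -0.23 and -0.24). EPC1 and EPC2, the scaffolds that hold the catalytic module, fell most. EPC1 changed by -1.54 (SE 0.13) and -1.66 (SE 0.14), and EPC2 by -1.60 (SE 0.18) and -1.88 (SE 0.19). MBTD1, which binds methylated histone H4, was the one that rose, by 0.42 (SE 0.10) and 0.65 (SE 0.10). At 14 days pracinostat lowered 6 and raised 0, and vorinostat lowered 9 and raised 1 (medians -0.36 and -0.35). YEATS4, a reader of acetylated lysine, fell, at -0.88 (SE 0.20) and -1.11 (SE 0.20).

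Of 9 scaffold and accessory genes of KAT6A, KAT6B and KAT7, pracinostat lowered 5 and raised 1 at 6 h, and vorinostat lowered 4 and raised 2 (medians -0.58 and -0.47). ING5, a reader of trimethylated H3 lysine 4, was at -1.88 (SE 0.18) with pracinostat, and the scaffold BRPF3 at -1.67 (SE 0.19). With vorinostat BRPF3 was at -2.15 (SE 0.21) and JADE2 at -1.87 (SE 0.17), while JADE3 rose with both, by 0.92 (SE 0.26) and 0.93 (SE 0.27). At 14 days pracinostat lowered 4 and raised 0, and vorinostat lowered 6 and raised 1 (medians -0.36 and -0.59), with JADE1 lowest at -1.17 (SE 0.21) and -1.54 (SE 0.22).

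Of 12 MSL and NSL partners of KAT8, pracinostat lowered 9 and raised 2 at 6 h, and vorinostat lowered 9 and raised 1 (medians -0.47 and -0.38). HCFC1, a large cofactor of the NSL complex, fell, at -2.02 (SE 0.19) and -2.05 (SE 0.21). At 14 days 6 and 8 of these genes fell and 0 rose (medians -0.41 and -0.49), HCFC1 at -0.60 (SE 0.14) and -0.79 (SE 0.14).

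Among 8 tested factors that bring in or bind CREBBP and EP300, ATF1, of the CREB family, fell in each comparison, at -1.44 (SE 0.16) and -1.98 (SE 0.18) at 6 h and at -0.78 (SE 0.14) and -1.31 (SE 0.15) at 14 days. CRTC1, a CREB coactivator, fell at 6 h, with -1.39 (SE 0.25) and -1.86 (SE 0.28). At 14 days CRTC1 rose with pracinostat, by 1.29 (SE 0.40, adjusted p 0.0291), and had 0.90 (SE 0.42, adjusted p 0.0971) with vorinostat. The change of its effect between the times was called with both drugs, at 2.65 (SE 0.49) and 2.74 (SE 0.53). At 6 h pracinostat lowered 2 of these factors and raised 1, and vorinostat lowered 2 and raised 2 (medians 0.02 and -0.10). At 14 days pracinostat lowered 1 and raised 2, and vorinostat lowered 2 and raised 2 (medians 0.01 and 0.26). With 8 genes in the list these counts lie near the shares of all genes and are no result about the list.

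Of 13 other enzymes with reported histone acetyltransferase activity, pracinostat lowered 4 and raised 0 at 6 h, and vorinostat lowered 6 and raised 1 (medians -0.15 and 0.01), TAF1, a TFIID subunit, at -0.98 (SE 0.12) and -0.84 (SE 0.13). At 14 days 1 fell with pracinostat and 5 with vorinostat, and 0 rose (medians -0.08 and -0.34). HAT1, which acetylates newly made histone H4, fell, at -0.81 (SE 0.25) and -0.79 (SE 0.25).

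Of 22 acetyl-lysine readers pracinostat lowered 5 and raised 3 at 6 h, and vorinostat lowered 4 and raised 4 (medians 0.03 and 0.05). The numbers that fell lie near the 18.9% and 20.9% of all genes and are no result about the readers. DPF3 and DPF1, subunits of neural BAF chromatin remodellers, rose, DPF3 by 1.90 (SE 0.23) and 2.15 (SE 0.25). At 14 days 5 and 8 readers fell and 2 and 2 rose (medians -0.21 and -0.19), with ATAD2, a bromodomain protein of dividing cells, at -1.31 (SE 0.32) and -1.80 (SE 0.32). Of 12 tested genes of acetyl-CoA supply, pracinostat raised 5 and lowered 3 at 6 h, and vorinostat raised 5 and lowered 2 (medians 0.20 and 0.21), led by ACSS2, which makes acetyl-CoA from acetate, at 1.65 (SE 0.35) and 1.76 (SE 0.38). At 14 days 1 rose with each drug, the mitochondrial ACSS1, by 1.73 (SE 0.32) and 1.53 (SE 0.33). ACLY, which makes acetyl-CoA from citrate, was then among the 3 and 5 that fell, at -0.63 (SE 0.15) and -1.19 (SE 0.16).

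Genes most like the family were ranked by the Pearson correlation of their log2 CPM, taken as deviations from the mean of their line, with the mean deviation of the 9 members over 37 libraries. Among 7407 genes whose mean log2 CPM reached 4, the most similar included ACIN1, which encodes an RNA-binding protein of the exon junction (r = 0.958), and SETDB1, a histone H3 lysine 9 methyltransferase (0.957). KDM3B, a demethylase of the same residue (0.954), and ZZZ3 (0.953) were also among them. The libraries share lines, treatments and times, so these values are a description.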

How the data were processed

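The deposited raw table holds whole-number read counts per gene for 37 libraries, per the file headers, and the deposited normalized table holds log2 CPM values. STAR, edgeR and hg38 are named in the submitters' processing notes, and libraries were made with the Illumina TruSeq RNA kit per the labels' protocols; versions, annotation and the strand setting were not given in the sources used here. Another sample titled SUDHL4 with vorinostat at 14 days was not analysed here.

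From these counts, edgeR 4.0.16 (R 4.3.3) fitted robust quasi-likelihood models with the cell line as block, TMM factors, filterByExpr (at least 10 counts, 15 in total) and Benjamini-Hochberg adjustment over all genes tested. Genes were called at an adjusted p under 0.05. Each time was fitted once over all its groups; changes between times used all libraries, with line and time as block. Libraries of a line come from 1 cell line, and their deviations correlated at 0.58 to 0.90. Intervals are 1.96 SE. CPM use TMM library sizes, and log2 CPM per library a prior count of 2. Levels per kb use GENCODE transcripts on GRCh38; promoters come from RefSeq. Fits were tested on simulated data with 200 changed genes, fewer than were called in any comparison of a drug with DMSO. The simulated lines did not differ in their response. That setting is simpler than the data and does not vouch for the calls. Alternatives used DESeq2 1.42.0, limma 3.58.1 on the deposited log2 values, other scalings, controls and left-out lines.

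All members are described; from each partner list up to 2 called genes per direction and comparison could be named, and the 5 most similar genes, of which 1 is not reported here. Members, lists and rules were chosen with earlier results of these data known.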

Additional observations from a re-analysis of the deposited data

Results flagged for a closer look

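In 6 of 63 gene and group combinations 1 library stood apart from the others of its group by Dixon's 95% criterion. Chance gives about 1 in 20 for independent combinations. The same lines recur across these groups, so a line difference can be flagged repeatedly and the 6 cannot be judged against that rate. All 6 are TOLEDO libraries. KAT7 had 113 CPM in DMSOP at 14 days, where the other lines had 59.5 to 74.4, 140 CPM in DMSOV at 14 days (others 52.6 to 72.5) and 116 CPM in DMSO at 6 h (others 45.3 to 64.7). KAT2B had 13.6 CPM with vorinostat at 6 h (others 42.3 to 48.4) and 16.4 CPM in DMSO at 6 h (others 48.8 to 62.9). KAT5 had 20.7 CPM with pracinostat at 14 days, where the other lines had 7.29 to 10.5 CPM.

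Effects that differed between 14 days and 6 h in the interaction test were those of KAT2A (0.85 with pracinostat, 0.94 with vorinostat), KAT5 (1.06 and 0.99) and KAT6A (-0.57 and -1.02), and that of KAT6B with pracinostat (0.70), all on the log2 scale.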

How the results depend on the processing

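Of 1107 single-gene values recomputed under the alternatives, 1026 kept their side of the threshold, 69 lost a call, 12 gained one, and 0 called values turned direction. Among the 1026 are values called in neither fit, some of which changed sign, and tests between lines, which have no direction. Without the cell line as replicate block, the members called numbered 3 with pracinostat and 5 with vorinostat at 6 h, and 0 and 1 at 14 days, and genes called 577 (5289 with the block) and 1106 (5790) at 6 h, and 8 (3167) and 696 (5274) at 14 days. With only the groups of the comparison in the fit, 2 members and 1950 genes were called with pracinostat at 14 days, and 2680 genes with vorinostat. Against the mean of both DMSO sets, 5008 genes were called with pracinostat at 14 days. Leaving out 1 line gave 0 to 4 members with pracinostat at 14 days, 2 to 3 for its change between times and 0 to 1 between DMSO at 14 days and 6 h. For all genes it gave 1970, 1424 and 1793 with pracinostat at 14 days without OCILY1, PFEIFFER and SUDHL4, 1599 for the pracinostat change between times without SUDHL4 (2986 with all lines), 1719 between the DMSO times without OCILY1 (3028), and 1732 and 1547 for line by drug without OCILY1 and PFEIFFER (2964), all fits on fewer samples. The direct contrast of the drugs at 6 h had 0 genes without the block, with only its groups or without any 1 line, and 49 with DESeq2. Removing mitochondrially encoded genes was chosen after seeing the data. KAT5 has the fewest counts, and its SE was the largest of the members in both drug comparisons at 6 h, while KAT2A had the largest at 14 days.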
